A study of Caenorhabditis elegans with 6 samples.

Results

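The genes described here are 61 protein-coding genes of Caenorhabditis elegans that carry only a sequence name, such as K02E7.10. Their level was raised in ddi-1(icb156) mutants, and wild-type replicate 2 did not stand far above the other wild-type libraries. They were chosen from 19999 genes, of which 9100 carry only a sequence name, by their measured levels in counts per 1000000 counts of the library (CPM). A gene was kept when its mean in ddi-1(icb156) was at least 1 CPM, its lowest mutant value was at least 3 times its highest wild-type value, and wild-type replicate 2 was no higher than 1.5 times the mean of wild-type replicates 1 and 3. Of 5618 unnamed genes that reached the level, 93 (1.66%) passed the fold, beside 184 of all 13591 genes at that level (1.35%), and 74 also passed the limit on replicate 2. The 19 others were over that limit, and 18 of these remain when genes dropped by name are left out. Of these 74, 13 were dropped by name, because they belong to induced clusters marked by 5 sequence-name prefixes or are among 4 strong single risers. The difference between mutant and wild type in these 61 genes was therefore set by the choice, and their values are given as a description, with no test.

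RNA-seq was performed on whole animals at the L4 stage, the last larval stage. The ddi-1(icb156) group and the wild-type group had 3 libraries each, called biological replicates by their labels, from animals grown from bleached embryos on E. coli OP50 at 20°C. The icb156 allele is a non-synonymous change in ddi-1 recovered from a chemical mutagenesis screen and is represented by a single strain, so other mutations in that strain were not examined here. An integrated transgene with a chil-27p::GFP reporter and a col-12p::mCherry marker is part of that strain, and the sources used here do not say whether wild type carried it. The mutation, the transgene and the strain background cannot be told apart in this comparison.

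DDI-1 is an aspartic protease that cleaves the transcription factor SKN-1A, and cleaved SKN-1A turns on proteasome subunit genes when the proteasome is impaired. In C. elegans, impaired proteasome function is also known to switch on sets of immune genes. These include the oomycete recognition response (ORR), seen in the epidermis on contact with oomycete pathogens, and the intracellular pathogen response (IPR), seen in the intestine on infection by microsporidia or the Orsay virus. Many genes of both sets were found by RNA-seq alone and have never received a gene name. No function is given below for the unnamed genes, as comparisons of protein sequence were not run. In RefSeq, 1 of the 61 carries another symbol, F35B3.4, which is listed as dbd-20.

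The libraries held 28962104 to 36258118 estimated counts in ddi-1(icb156) and 40554395 to 47142002 in wild type. On the first principal component, which took 78.5% of the variance, the mutants lay at -62.8 to -50.6. Wild-type replicates 1 and 3 lay at 77.4 and 74.9, and wild-type replicate 2 at 17.2, between them and the mutants. The ddi-1 transcript itself was at 36.1, 37.8 and 35.0 CPM in ddi-1(icb156), against 47, 49.1 and 47.1 CPM in wild type (log2 fold change -0.48 ± 0.05 SE, edgeR adjusted p = 0.00308). As the allele changes the protein, this level does not check the labels. Markers of sperm summed to 76.4 to 112 CPM in ddi-1(icb156), against 417, 148 and 428 CPM in wild-type replicates 1, 2 and 3, and all 6 were called lower. The 6 yolk protein genes summed to 324 to 529 CPM in ddi-1(icb156), against 5129, 2687 and 5536 CPM, and all 6 were called lower, as were 5 of 5 oocyte and eggshell markers (159 to 189 CPM against 446, 225 and 463 CPM). Of the 6 intestinal markers found, 1 was called higher, and of the 7 epidermal markers 1 was called higher and 1 lower. Neuronal markers had 2 of 5 called higher (median log2 fold change 0.31), pharyngeal markers 1 of 5 higher (0.53), germline markers 2 of 5 lower (-0.46) and body wall muscle markers 1 of 5 lower (-0.22). No marker was at 0 in every library. In whole animals, fewer cells of a type and less RNA per cell cannot be told apart. The labels give only the L4 stage, so whether both groups were at the same point within L4 is not known. The part of these marker shifts in the levels described below was not tested.

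The 3 thresholds left some genes only just on either side. For the level, Y43F8B.15 (1.08 CPM), C26D10.7 (1.12 CPM) and F43C1.7 (1.5 CPM) were the lowest kept, whereas C25F9.16 (0.997 CPM), F17B5.6 (0.889 CPM) and C01G10.17 (0.804 CPM) fell just short. For the fold, the smallest ratios of the lowest mutant to the highest wild-type value among kept genes were those of C50F4.8 (3.05), F56B6.6 (3.09) and Y38E10A.14 (3.10). Just outside were B0205.13 (2.91), K04C2.5 (2.89) and C42D4.3 (2.85). For the limit, T10C6.15 (1.46), B0462.5 (1.45) and ZK863.8 (1.43) were the nearest inside, and ZK355.8 (1.54), C06E8.5 (1.58) and T19C3.3 (1.64) the nearest outside.

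**Figure D1:**
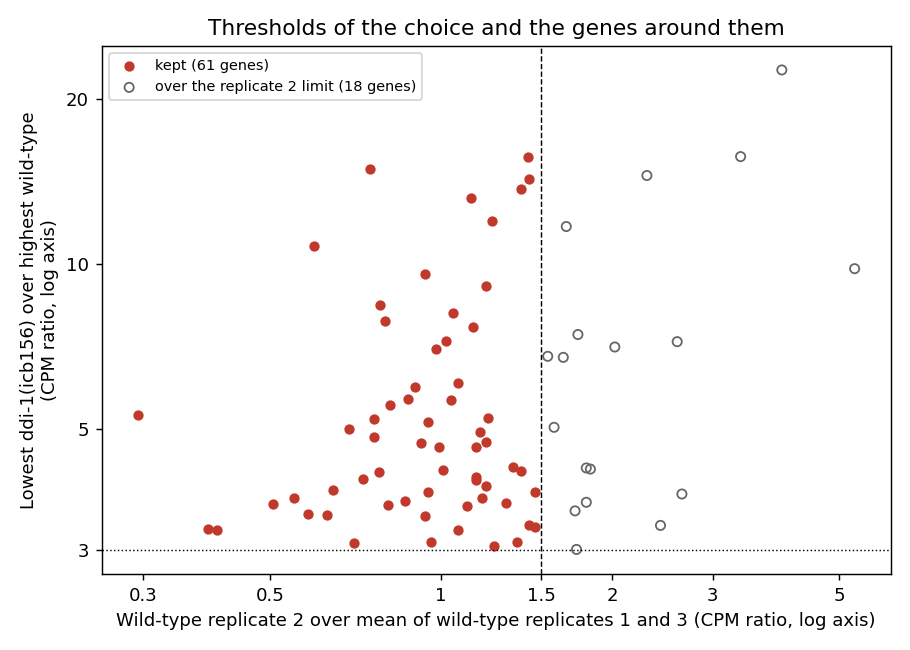
Ratio of the lowest ddi-1(icb156) to the highest wild-type CPM (vertical, log axis) against the ratio of wild-type replicate 2 to the mean of wild-type replicates 1 and 3 (horizontal, log axis). Filled points are the 61 kept genes, open circles the 18 unnamed genes over the limit that were not dropped by name, and the dashed and dotted lines are the thresholds of 1.5 and 3. The kept genes spread from 0.293 to 1.46 on the horizontal axis, around a median of 0.992.

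Most of the 61 genes were weakly expressed. Mean levels ran from 1.08 to 244 CPM in ddi-1(icb156), with a median of 6.20, and from 0.130 to 60.3 CPM in wild type, with a median of 0.814. Only 20 genes reached 10 CPM in the mutants, 27 stayed under 5 CPM there, and 34 had a wild-type mean under 1 CPM. Behind these values lay 107 to 24104 counts per gene over the 3 mutants and 17 to 7712 over the 3 wild-type libraries. The coefficient of variation between replicates had a median of 11.5% in ddi-1(icb156) (range 1.10 to 42.9%) and 21.7% in wild type (range 2.84 to 74.8%).

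As the choice required, the raised level was shared by all 3 mutant libraries. Summed over the 61 genes, ddi-1(icb156) replicates 1, 2 and 3 held 844, 893 and 951 CPM, against 144, 160 and 152 CPM in wild-type replicates 1, 2 and 3. Wild-type replicate 2, which stood apart on the first component and in the sperm and yolk markers, was close to the other wild-type libraries here. The limit of the choice favours this, so nothing is read from it. Y38E10A.14 alone made up much of the sum, and without it the sums were 618, 659 and 680 CPM in the mutants, against 91.2, 87.0 and 96.8 CPM in wild type. No single mutant library led: replicate 1 was the highest mutant for 18 genes, replicate 2 for 19 and replicate 3 for 24. Among wild-type libraries the highest was replicate 1 for 20 genes, replicate 2 for 19 and replicate 3 for 22.

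**Figure D2:**
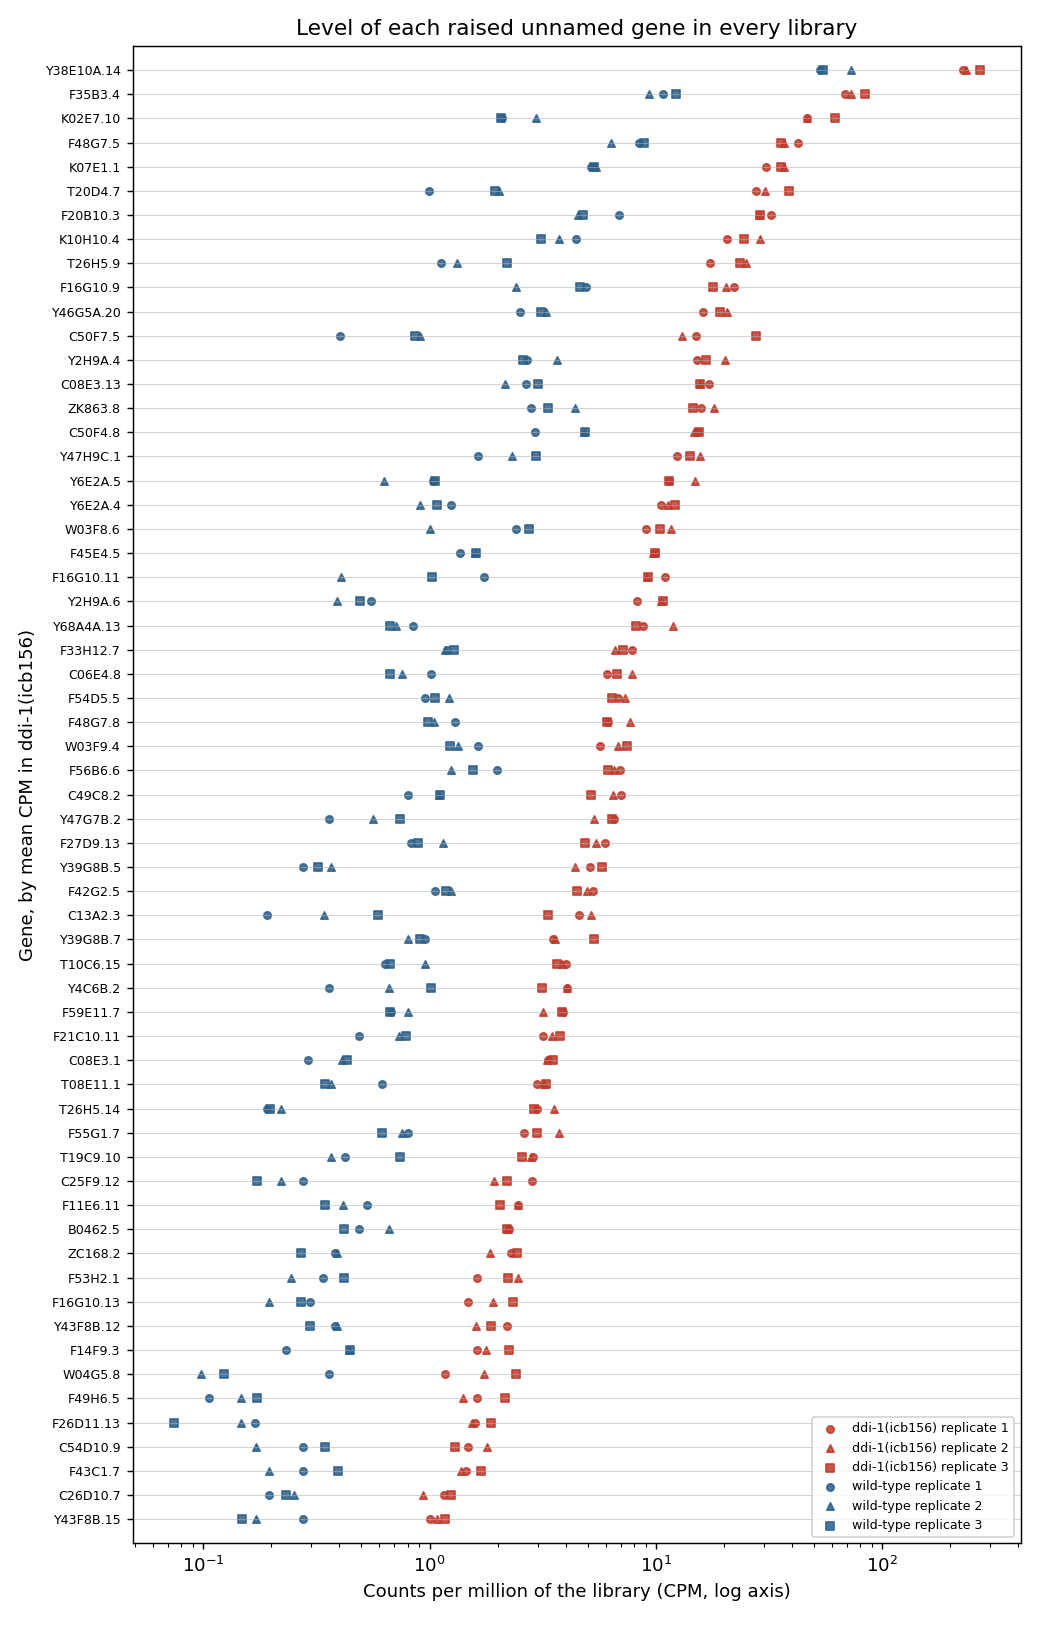
CPM of each of the 61 genes (rows, by mean mutant level) in the 3 ddi-1(icb156) libraries (red) and the 3 wild-type libraries (blue), with a marker shape for each replicate number and a log axis. In every row the red and blue points are apart, as the choice requires, and the distance is widest for K02E7.10, Y2H9A.6, C50F7.5 and T20D4.7.

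Fitted log2 fold changes of the 61 genes ran from 1.78 to 4.62, with a median of 2.54, beside a median of 0.01 over all 15409 genes tested. All 61 were called higher by edgeR at p below 0.01 and adjusted p below 0.1, the limits also used by the study, where 9.96% of all genes tested were called higher. Because this contrast chose the genes, nothing is read from that count.

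The strongest of the 61 was Y38E10A.14 (WBGene00012592, chromosome II, 12623110 to 12624533, WBcel235), a gene for a protein of 168 residues. It had 227, 234 and 271 CPM in ddi-1(icb156), against 52.9, 73.1 and 54.9 CPM in wild type, a log2 fold change of 1.94 ± 0.16 (SE). This was at once the most abundant gene of the set and one of its smallest relative differences. F35B3.4 (dbd-20, chromosome X, 17019616 to 17020958) came next with 68.2, 72.6 and 83.6 CPM in the mutants, against 10.7, 9.36 and 12.3 CPM in wild type (2.71 ± 0.15). Its replicates were tight in both groups. F48G7.5, on the left end of chromosome V, had 42.3, 36.7 and 35.8 CPM in ddi-1(icb156) and 8.46, 6.31 and 8.85 CPM in wild type (2.20 ± 0.15). K07E1.1, on chromosome II, had 30.8, 37.0 and 35.8 CPM in ddi-1(icb156) and 5.15, 5.45 and 5.35 CPM in wild type (2.62 ± 0.11), the smallest standard error of the 61 genes. F20B10.3, on chromosome IV, had 32.4, 28.7 and 28.9 CPM in the mutants, against 6.87, 4.52 and 4.76 CPM in wild type (2.39 ± 0.19). None of these 5 genes was on the published response lists described below. K10H10.4, also on none of them, had 20.6, 28.8 and 24.4 CPM in ddi-1(icb156) and 4.43, 3.74 and 3.11 CPM in wild type (2.62 ± 0.18).

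CPM does not allow levels of different genes to be compared, because long transcripts yield more reads, so length-corrected levels (TPM) were computed for that purpose. Y38E10A.14 remained first at 204 ± 23.1 TPM in ddi-1(icb156) and 52.2 ± 10.6 TPM in wild type (SD, n = 3 each). Short genes moved up the order. T26H5.9, with 74 residues, was at 101 ± 21.7 TPM in ddi-1(icb156) and 7.38 TPM in wild type, and C08E3.13, with 78 residues, was at 83.5 ± 1.23 TPM in ddi-1(icb156) and 14.2 TPM in wild type. F35B3.4 (75.6 ± 9.33 TPM), T20D4.7 (75.1 ± 14.5 TPM) and F48G7.5 (70.0 ± 4.73 TPM) followed in the mutants, at levels that did not differ from each other by more than their spread. K07E1.1 (50.2 TPM), K02E7.10 (47.5 TPM), Y46G5A.20 (41.1 TPM) and Y68A4A.13 (39.1 TPM) completed the first 10.

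The largest relative differences were not confined to the faintest genes. K02E7.10 (chromosome II) had 46.4, 46.7 and 61.7 CPM in ddi-1(icb156), against 2.10, 2.96 and 2.07 CPM in wild type (4.37 ± 0.22), and its lowest mutant value was 15.7 times its highest wild-type value. Y2H9A.6 (chromosome V) had 8.22, 10.5 and 10.7 CPM in the mutants, against 0.552, 0.391 and 0.493 CPM in wild type (4.26 ± 0.22). T20D4.7 (chromosome V) had 27.8, 30.5 and 38.8 CPM in ddi-1(icb156), against 0.997, 2.03 and 1.95 CPM in wild type (4.22 ± 0.31). The wild-type means of K02E7.10 and T20D4.7, unlike that of Y2H9A.6, were above the median of the set. C50F7.5 (chromosome IV) had the highest fitted value, 4.62 ± 0.47, and also a wide spread, with 15.1, 13 and 27.8 CPM in the mutants, against 0.403, 0.905 and 0.863 CPM in wild type. Its value in mutant replicate 3 was well above the other two. T26H5.9 (chromosome V) had 17.3, 25 and 23.5 CPM in ddi-1(icb156), against 1.12, 1.32 and 2.19 CPM in wild type (3.75 ± 0.30). Y68A4A.13 (chromosome V), whose protein has 67 residues, the shortest of the set, had 8.80, 11.9 and 8.14 CPM in the mutants, against 0.849, 0.709 and 0.666 CPM in wild type (3.60 ± 0.21). In all, the lowest mutant value was at least 10 times the highest wild-type value for 7 genes and under 4 times for 23.

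Presence on gene lists from other experiments was not used in the choice. The study assembled 4 such lists, of genes induced in the ORR, by the proteasome inhibitor bortezomib (BTZ), by loss of skn-1a in skn-1a(mg570) mutants, and in the IPR. Of the 61 genes, 21 (34.4%) were on the BTZ list, against 3.41% of the 6800 tested genes with only a sequence name. The ORR list held 10 (16.4% against 0.926%), the IPR list also 10 (16.4% against 0.456%) and the skn-1a(mg570) list 4 (6.56% against 0.574%). In total 26 genes (42.6%) were on at least 1 list, against 4.07% of the tested unnamed genes, and 35 were on none. Not every listed name was matched to a measured gene, so absence from a list is not certain. The matched genes numbered 625 from 700 BTZ names, 193 from 206 ORR names, 101 from 107 skn-1a(mg570) names and 78 from 80 IPR names. Since list genes outside the set were often raised as well, as given below, and the set was chosen for a raised level, these shares describe the set and were not tested.

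**Figure D3:**
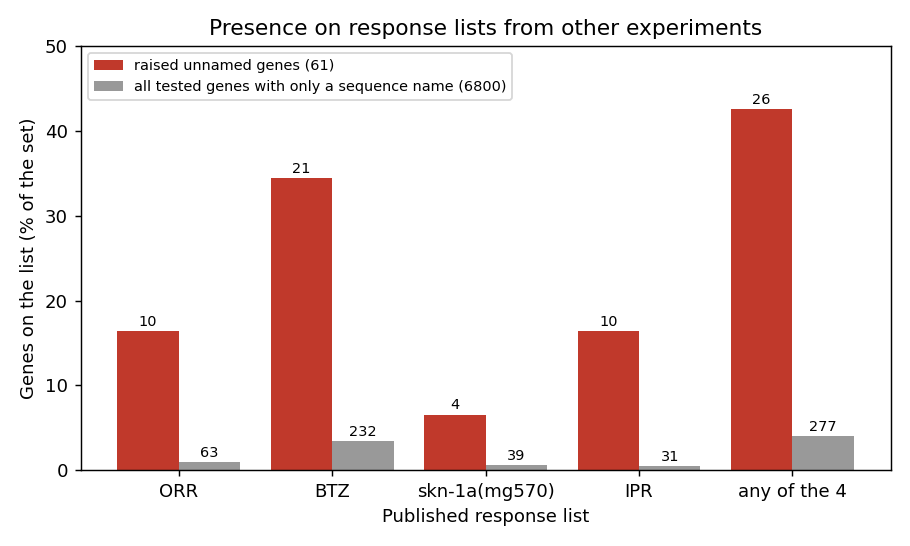
Share of the 61 raised unnamed genes (red) and of all 6800 tested genes with only a sequence name (grey) that are on each published response list, with the number of genes above each bar. The BTZ list held most of the listed genes, 21 of 26.

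Of the 61 genes, Y2H9A.6 alone was on all 4 lists. A further 6 genes were on 3 lists, 4 on 2 lists and 15 on 1. T20D4.7 was on the ORR, BTZ and skn-1a(mg570) lists. Y6E2A.5, on the ORR, BTZ and IPR lists, had 11.4, 14.9 and 11.4 CPM in ddi-1(icb156), against 1.04, 0.629 and 1.06 CPM in wild type (3.69 ± 0.24). On the same 3 lists, Y39G8B.5 had 5.11, 4.39 and 5.78 CPM in the mutants, against 0.276, 0.367 and 0.321 CPM in wild type (3.90 ± 0.24). T10C6.15, again on those 3, had 4.01, 3.83 and 3.65 CPM in the mutants, against 0.636, 0.953 and 0.666 CPM in wild type (2.26 ± 0.22). These genes differed in level among themselves. T08E11.1, on the BTZ, skn-1a(mg570) and IPR lists, had 2.97, 3.20 and 3.26 CPM in ddi-1(icb156) and 0.615, 0.367 and 0.345 CPM in wild type (2.73 ± 0.28).

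The genes with fewer lists included several of the more abundant ones. K02E7.10 was on the ORR and BTZ lists, and Y46G5A.20 on the BTZ and IPR lists, with 16.2, 20.6 and 19.2 CPM in ddi-1(icb156), against 2.50, 3.28 and 3.10 CPM in wild type (2.58 ± 0.16). Exons of Y46G5A.20 overlap those of acl-7, so its counts are uncertain. F33H12.7, on the BTZ and skn-1a(mg570) lists, had 7.87, 6.59 and 7.16 CPM in the mutants, against 1.19, 1.17 and 1.28 CPM in wild type (2.48 ± 0.17). C06E4.8, on the ORR list alone, had 6.08, 7.81 and 6.71 CPM in ddi-1(icb156), against 1.02, 0.758 and 0.666 CPM in wild type (2.98 ± 0.22). The 26 listed genes had a median level of 5.01 CPM in ddi-1(icb156) and 0.641 CPM in wild type, and the 35 unlisted genes 6.65 CPM and 1.08 CPM. Their fitted log2 fold changes overlapped broadly, from 2.0 to 4.37 with a median of 2.66 for listed genes and from 1.78 to 4.62 with a median of 2.39 for unlisted genes.

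List genes outside the set were then examined with the fit across all genes. Genes dropped by name, already known as raised in these data, were not taken out of this group. Neither were named genes that met the same thresholds. Of 569 tested, 178 (31.3%) were called higher and 33 (5.80%) lower in ddi-1(icb156), beside 9.96% and 13.4% of all genes tested, and their median log2 fold change was 0.46. By list, 40 of 58 IPR genes were called higher (median 2.07), and 49 of 78 skn-1a(mg570) genes were called higher and 2 lower (median 1.92). The ORR list had 73 of 147 higher and 14 lower (median 1.08), and the BTZ list 150 of 466 higher and 18 lower (median 0.47). Without wild-type replicate 2, 259 of 581 list genes were called higher, beside 19.7% of all genes, and 58 lower.

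The position of the 61 genes was not used in the choice either, apart from the clusters dropped by name. On the chromosome, 17 of the 61 lay within 20 kb of another gene of the set, in 1 run of 3 and 7 pairs. No such count is given for other genes, so the runs are a description and no excess is read from them. The run of 3 comprised F16G10.9, F16G10.11 and F16G10.13 on chromosome II, all on the reverse strand within 11779 bp, with proteins of 209, 221 and 230 residues. F16G10.9 had 22.2, 20.5 and 17.9 CPM in ddi-1(icb156), against 4.92, 2.42 and 4.64 CPM in wild type. F16G10.11 had 11, 9.18 and 9.26 CPM in the mutants, against 1.74, 0.406 and 1.03 CPM in wild type. F16G10.13 had 1.48, 1.90 and 2.34 CPM in the mutants, against 0.297, 0.196 and 0.271 CPM in wild type. All 3 were lowest among wild-type libraries in replicate 2. F16G10.10, the gene between them, had at most 0.0740 CPM in any library and was not tested.

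Pairs of genes for proteins of like length recurred among the runs. C08E3.13 and C08E3.1 are adjacent on chromosome II and have 78 residues each. C08E3.13 had 17.2, 15.7 and 15.6 CPM in ddi-1(icb156), against 2.66, 2.15 and 3.0 CPM in wild type, and was on the IPR list. C08E3.1, on no list, had 3.33, 3.30 and 3.52 CPM in ddi-1(icb156), against 0.289, 0.410 and 0.431 CPM in wild type. The groups were far apart for both genes. F48G7.5 and F48G7.8 on chromosome V have 164 and 165 residues, and F48G7.8 had 6.15, 7.72 and 6.08 CPM in the mutants, against 1.29, 1.05 and 0.986 CPM in wild type. T26H5.9 and T26H5.14 on chromosome V have 74 and 72 residues, and T26H5.14 had 2.97, 3.56 and 2.90 CPM in the mutants, against 0.191, 0.220 and 0.197 CPM in wild type. Where such neighbours are near-identical copies the authors' counting could divide reads between them, and their sequences were not analysed here. The genes between these pairs were too low to be tested. Between the F48G7 genes, srt-17 and F48G7.7 had at most 0.0299 CPM in any library. Between the T26H5 genes, srh-239 had at most 0.150 CPM, and T26H5.4 had 0.414, 0.359 and 0.210 CPM in ddi-1(icb156), against 0.0212, 0.0244 and 0 CPM in wild type, with every mutant above every wild-type library.

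The other pairs joined genes of unlike length. Y2H9A.6, with 301 residues, lay beside Y2H9A.4, with 625 residues, which had 15.2, 20.2 and 16.6 CPM in ddi-1(icb156), against 2.69, 3.64 and 2.59 CPM in wild type. Y6E2A.5 and Y6E2A.4 overlap in their exons, so their counts are uncertain, and Y6E2A.4 had 10.5, 11.3 and 12.1 CPM in the mutants, against 1.25, 0.912 and 1.08 CPM in wild type. Next to Y39G8B.5, Y39G8B.7 had 3.52, 3.59 and 5.33 CPM in ddi-1(icb156), against 0.955, 0.807 and 0.912 CPM in wild type. This gene was on no list whereas its partner was on 3. Y43F8B.15 and Y43F8B.12 were both on the BTZ list and both faint. Y43F8B.15 had 1.0, 1.08 and 1.17 CPM in the mutants, against 0.276, 0.171 and 0.148 CPM in wild type. Y43F8B.12 had 2.21, 1.60 and 1.86 CPM in the mutants, against 0.382, 0.391 and 0.296 CPM in wild type. Y43F8B.23, which lies between them, had 1.69, 1.10 and 1.44 CPM in ddi-1(icb156), against 0.127, 0.244 and 0.641 CPM in wild type, and did not pass the test (log2 fold change 1.99, edgeR adjusted p = 0.0435, with p above the limit of 0.01).

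Whether genes next to the set were raised too was tested on the 111 adjacent protein-coding genes that are not in the set. Of 69 tested, 23 (33.3%) were called higher and 6 (8.70%) lower in ddi-1(icb156), beside 9.96% and 13.4% of all genes tested, with a median log2 fold change of 0.32. Neighbours whose exons overlap the gene of the set could share its reads. Without these, 20 of 61 (32.8%) were called higher. Neighbours that did not themselves meet the fold threshold had 17 of 63 (27%) called higher. Among neighbours with only a sequence name 16 of 37 were called higher, and among named neighbours 7 of 32. Without wild-type replicate 2, 31 of 73 neighbours were called higher (42.5%), beside 19.7% of all genes, and 10 lower. Leaving out wild-type replicate 1 gave 13 of 73 (17.8%), beside 6.55% of all genes, leaving out mutant replicate 1 gave 14 of 70 (20.0%), beside 6.26%, and leaving out mutant replicate 3 gave 15 of 72 (20.8%), beside 6.62%.

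The called neighbour with the smallest p was F42C5.3, next to C06E4.8 on chromosome IV and itself dropped by name from the choice, with 10, 10.3 and 10.2 CPM in ddi-1(icb156), against 0.403, 0.391 and 0.444 CPM in wild type (log2 fold change 4.53 ± 0.16 SE, edgeR adjusted p = 1.04e-04). The pals genes are a large family of C. elegans in which certain members regulate the IPR. A gene of this family with no such role given here, pals-38, next to C54D10.9, had 3.69, 5.65 and 4.82 CPM in the mutants, against 0.467, 0.416 and 0.296 CPM in wild type (3.49 ± 0.27, edgeR adjusted p = 0.00102). Y6E2A.7, next to Y6E2A.5, had 3.07, 3.70 and 4.01 CPM in ddi-1(icb156), against 0.0424, 0.196 and 0.0740 CPM in wild type (5.02 ± 0.45, edgeR adjusted p = 0.00153). It met the level and the fold of the choice but was over the limit on replicate 2. T20D4.10, near T20D4.7, had 43, 49.3 and 40.2 CPM in the mutants, against 12, 16.3 and 11 CPM in wild type (1.67 ± 0.16, edgeR adjusted p = 0.00186).

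The next called neighbours by p were srw-86 and cnc-7. The gene srw-86, of a family of predicted chemoreceptors, lies next to C25F9.12 and had 3.45, 3.23 and 3.50 CPM in ddi-1(icb156), against 0.424, 0.440 and 0.173 CPM in wild type (3.19 ± 0.34, edgeR adjusted p = 0.00247). The gene cnc-7, of the caenacin family of antimicrobial peptide genes, lies next to F53H2.1 and had 0.622, 0.938 and 0.838 CPM in the mutants, against 0.0212, 0.0489 and 0.0740 CPM in wild type (3.92 ± 0.44, edgeR adjusted p = 0.00301). All 6 of these neighbours were called higher whichever library was left out, but Y6E2A.7 and cnc-7 were not tested, and so not called, when at least 10 counts in at least 5 libraries were required. Of the neighbours called lower, spds-1, which encodes spermidine synthase, lies next to Y46G5A.20 and had 51.6, 47.9 and 48.7 CPM in ddi-1(icb156), against 63.4, 66.6 and 60.2 CPM in wild type (-0.44 ± 0.07, edgeR adjusted p = 0.0106). F59E11.6 and str-87 flank F59E11.7, a gene of the set. F59E11.6 had 0.898, 0.496 and 0.240 CPM in the mutants, against 5.98, 2.74 and 4.41 CPM in wild type, and str-87 had 0.138, 0.0827 and 0.0299 CPM, against 0.764, 0.391 and 0.419 CPM. They fell by 3.11 and 2.73 on the log2 scale (edgeR adjusted p = 0.0112 and 0.0216). The call of str-87, another predicted chemoreceptor gene, was lost without mutant replicate 2 (edgeR adjusted p = 0.0998, p above 0.01), and under the same stricter filter it was not tested. The 3 called neighbours with overlapping exons, F21C10.13, C54D10.10 and T19C9.8, named here after their values were seen, each stayed called in only 2 of the 6 fits that left out a library.

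**Figure D4:**
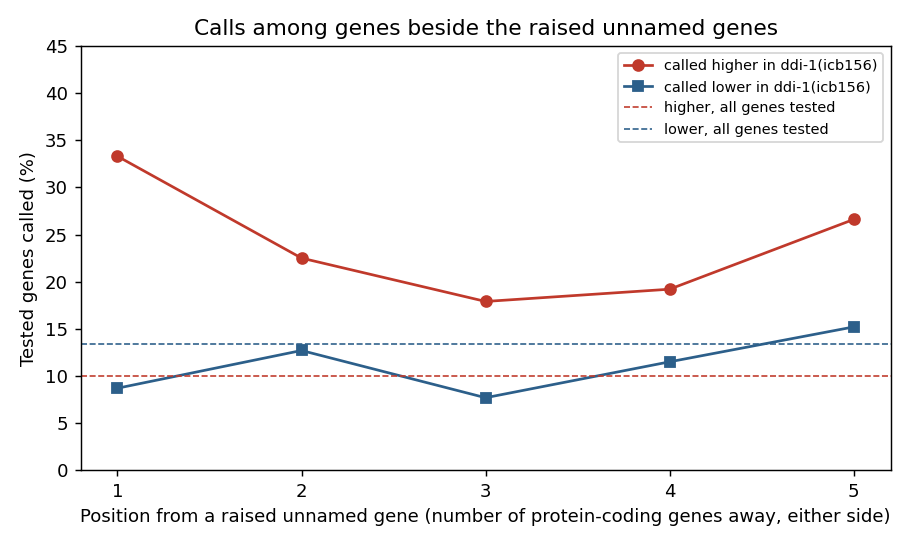
Percentage of tested genes called higher (red circles) and lower (blue squares) in ddi-1(icb156) at each position from the 61 genes, counted in protein-coding genes on either side, with dashed lines for all genes tested (9.96% higher, 13.4% lower). The share called higher was 33.3% at the first position and between 17.9 and 26.6% at positions 2 to 5.

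The share called higher was above that of all genes beyond the adjacent genes as well. It was 22.5% of 71 tested genes at position 2, 17.9% of 78 at position 3, 19.2% of 78 at position 4 and 26.6% of 79 at position 5, so it did not decline steadily with distance. A gene can stand at different positions from different genes of the set.

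Chromosomes V and II held most of the set. Chromosome V had 27 genes (44.3%) and chromosome II 18 (29.5%), against 20.1% and 17.4% of the other unnamed genes at or above 1 CPM. Chromosome IV had 10 (16.4% against 17.4%), X had 3, I had 2 and III had 1. The share of genes called higher also differed between chromosomes outside the set, from 6.76% on I and 7.53% on IV to 9.88% on II, 11% on X and 13.5% on V. Of adjacent genes tested, 14 of 26 were called higher on V, 5 of 15 on II, 3 of 19 on IV, 0 of 5 on X, 1 of 2 on I and 0 of 2 on III, numbers too small on the last 3 to set an order. The 10 genes on chromosome IV lay 0.76 to 10.92 Mb from ddi-1, which is on the same chromosome, and 6 of them (60.0%) lay within 2 Mb, against 26.5% of the other unnamed genes of chromosome IV. Within 1 Mb lay 2 of them (20.0% against 11.7%) and within 4 Mb 7 (70.0% against 52.2%). These windows were chosen after the positions were seen. Among tested genes outside the set, 6.38% within 2 Mb of ddi-1 and 7.94% beyond it were called higher.

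The proteins were short. They had a median of 227 residues (range 67 to 934), and 42.6% had under 200, against a median of 304 residues and 28.9% for the other unnamed genes at or above 1 CPM. The 60 named genes that passed the same level, fold and limit, out of 91 of 7973 (1.14%) that passed level and fold, had a median of 402 residues, with 16.7% under 200. Within the set, genes on a response list had a median of 314 residues and genes on none a median of 200. Annotation was simple too: 67.2% had a single transcript, against 40.6% of the other unnamed genes and 68.3% of the named genes chosen in the same way. Exons of 12 of the 61 overlap those of another protein-coding gene, so their counts are uncertain, and 49 have no such overlap.

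Of the 20 genes with several transcripts, 17 had the same leading transcript in both groups by pooled counts and 3 did not, which are named here after their values were seen. F53H2.1 was the clearest of these. Its transcript F53H2.1a.1 held 25, 69 and 35 estimated counts in ddi-1(icb156) and 0 in each wild-type library, where F53H2.1b.1 held 16, 7 and 9, against 11, 3 and 14 in the mutants. For F11E6.11 the leading transcript changed among the wild-type libraries themselves. For C25F9.12 it changed among the mutants, with all counts on C25F9.12.2 in replicates 1 and 2 and all on C25F9.12.1 in replicate 3, so neither shows a difference between the groups beyond the spread of replicates. These 3 genes had few reads, and the division of reads between transcripts of a gene is an estimate.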

How the data were processed

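Whole L4 animals of ddi-1(icb156) and wild type were compared, with 3 libraries each. The authors quantified transcripts with kallisto against the WormBase WS283 transcriptome and deposited estimated counts per transcript, not normalized and not pooled, and the sources used here give neither the tool's version nor whether counting used strand. The deposited tables also hold transcript lengths and effective lengths, which served here to compute TPM.

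Of 37058 transcripts, 30413 were joined to genes of the WBcel235 annotation (Ensembl release 115) by transcript ID and 6633 by sequence name, and 12 had no match and were kept under their own names. Estimated counts were summed per gene. CPM use library totals. For tests, sums were rounded and compared by edgeR 4.0.16 (R 4.3.3) with filterByExpr, TMM factors of 0.9692 to 1.0716 and a two-sided robust quasi-likelihood test without covariates, adjusted by the Benjamini-Hochberg method over 15409 genes. Genes were called at p below 0.01 and adjusted p below 0.1. The procedure was also run on simulated counts with the same spread for every gene and no outlying library. That run does not cover a library such as wild-type replicate 2. With 28962104 to 47142002 estimated counts per library, genes of few counts are imprecise, and p-values measure only the spread between these samples.

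Libraries with the same replicate number had correlations of deviations from group means of 0.114, 0.309 and 0.185. The numbers were therefore taken as a possible pairing, which the main test left out and the replicate block used. This pairing comes from the data and not from the labels, and it is weak for replicates 1 and 3, since mutant replicate 3 with wild-type replicate 1 also gave 0.114 and mutant replicate 1 with wild-type replicate 3 gave 0.092, whereas the other unmatched pairs were below 0. Alternatives were library totals, DESeq2 1.42.0, other filters, a replicate block, each library left out, and other thresholds of the choice.

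The 61 genes and the lists were chosen with earlier results of these data known. Genes named are the 12 of highest mutant level, the 8 of largest ratio, up to 5 on each response list, those in runs or next to a threshold, up to 6 neighbours called higher with the smallest p and up to 3 called lower. Comparisons of protein sequence, promoter motifs and closest named relatives were not run.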

Additional observations from a re-analysis of the deposited data

How the results depend on the processing

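All 61 genes were called higher under every alternative fit in which they were tested. The choice used the same libraries, so nothing is read from that. The 259 values of 37 named genes under TMM-scaled CPM or without a library moved by less than the replicate spread. A fold of 2 gave 134 genes and a fold of 4 gave 38, and TPM in place of CPM gave 67, of which 52 were shared. Dropping only the limit on wild-type replicate 2, with every library kept, gave 79 genes. Leaving out a library gave 65 to 167 genes, the highest when that replicate was absent from both the limit and the fold. It gave 931 to 3085 genes called higher and 771 to 3474 lower, 13 to 31 neighbours higher and 2 to 10 lower, and 138 to 259 list genes higher and 23 to 58 lower, with the highest value each time without wild-type replicate 2. The cause was not tested. Neighbours called lower numbered 2 without mutant replicate 2 and 3 without wild-type replicate 3. Higher calls were 42.6% of all calls with TMM and 53.2% with library totals, which moved the median of all genes to 0.09 on the log2 scale. The replicate block, which pairs libraries by number, gave 1403 genes higher and 2198 lower, 20 and 5 neighbours, and 175 and 39 list genes, and moved no count by over 1.5 times. DESeq2 called 1919 higher and 2835 lower. Comparisons of protein sequences and their alternatives were not run. The wild-type level of most genes rests on few counts, which limits the precision of their ratios.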

Other observations

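A further 18 unnamed genes met the level and the fold but were over the limit on wild-type replicate 2, not counting 1 gene dropped by name. T19C3.3 was the most abundant of them, with 50.8, 49.5 and 41.6 CPM in ddi-1(icb156), against 4.16, 6.16 and 3.38 CPM in wild-type replicates 1, 2 and 3. C25F9.11 had 15.4, 14.5 and 20.3 CPM in the mutants, against 1.02, 2.05 and 1.01 CPM in wild type. T26H5.10, of the same T26H5 group of genes as 1 of the pairs, had 1.10, 1.90 and 1.80 CPM in ddi-1(icb156), against 0, 0.0489 and 0.0247 CPM in wild type, so that its ratio to wild-type replicate 2 rests on very few counts. Of the 18, the genes Y6E2A.7, T05A8.1 and W04G5.16 lay next to a gene of the set. These genes were named after their values were seen.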
